A study of Mus musculus with 12 samples.

Results

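The Id family, Id1, Id2, Id3 and Id4, was followed in brown adipose tissue of obese mice. It was represented by 8 of the 45101 probe sets on the array: 1 for Id1, 3 for Id2, 1 for Id3 and 3 for Id4, each assigned to a single gene by the platform's annotation. The genes lie on chromosomes 2 (Id1), 12 (Id2), 4 (Id3) and 13 (Id4) of the mouse. These are 4 of the 18193 genes measured by probe sets with a single gene. Treated animals were male ob/ob mice, which lack leptin, aged 3 months, that had received a single injection of 1 mg/kg of an agonistic antibody against the receptor FGFR1 into the abdominal cavity. Controls were male ob/ob mice of the same age that were pair-fed and injected with control IgG. Both groups ate normal chow and were sampled on day 4, with 6 mice and 6 arrays each. The antibody reached the whole animal and the RNA came from whole tissue, so the values combine all cell types of the fat pad.

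Id proteins are short helix-loop-helix proteins without the basic region that contacts DNA. They pair with E proteins, the widely expressed basic helix-loop-helix (bHLH) factors, and so keep E proteins and their tissue-specific partners off their target sites, the E-boxes. Their genes are classical targets of bone morphogenetic protein (BMP) signalling, in which a ligand binds a pair of receptors and SMAD proteins carry the signal to the nucleus. In mice, Id1 has been described as a brake on heat production in brown fat, Id2 takes part in adipocyte differentiation, Id3 acts in lymphocytes and vessels, and Id4 is best known from neural, germline and bone precursors.

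The family was selected on the log2 fold change between anti-FGFR1 and control IgG, in which Id4, at -0.93, had the ninth place among the falls of all called genes and so a place among the 10 largest. Just inside that limit lay Fads3 at -0.92 and just outside it Ccnd1 at -0.90. The differences of the Id genes between the groups are therefore given as a description. The limma calls given further on for these genes are not a test of them.

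The bases before the annotated starts are shown because several Id genes varied together from mouse to mouse, as described further on. RefSeq promoter windows (GRCm38.p6) were found for 3 of the 4 genes. Id1 had none, so the pair that varied together most closely, Id1 and Id3, cannot be compared. Capitals mark GGCGCC, a GC-rich motif bound by SMADs of the BMP branch, GCGNGGGCG, the motif of the ERK-induced factor Egr1, and CCAAT, searched on both strands. The windows are chr12:25096093-25096342 on the minus strand for Id2, chr4:136143572-136143821 on the plus strand for Id3 and chr13:48260866-48261115 on the plus strand for Id4, each the 250 bases before the start, 5′ to 3′.
Id2: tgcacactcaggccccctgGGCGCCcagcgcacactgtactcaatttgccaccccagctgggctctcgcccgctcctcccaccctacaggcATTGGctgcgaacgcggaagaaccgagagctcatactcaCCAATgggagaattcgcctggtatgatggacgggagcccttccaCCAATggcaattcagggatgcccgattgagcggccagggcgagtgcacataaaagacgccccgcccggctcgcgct
Id3: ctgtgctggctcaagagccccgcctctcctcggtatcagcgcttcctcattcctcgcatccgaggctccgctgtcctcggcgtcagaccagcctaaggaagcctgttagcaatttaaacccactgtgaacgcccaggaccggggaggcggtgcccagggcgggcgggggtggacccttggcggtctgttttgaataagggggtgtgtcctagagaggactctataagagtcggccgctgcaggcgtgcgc
Id4: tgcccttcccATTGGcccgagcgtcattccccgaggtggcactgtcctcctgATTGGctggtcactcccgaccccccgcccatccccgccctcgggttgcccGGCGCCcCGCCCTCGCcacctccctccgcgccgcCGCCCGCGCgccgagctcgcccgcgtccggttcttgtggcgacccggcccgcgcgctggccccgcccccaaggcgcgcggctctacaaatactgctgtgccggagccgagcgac

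Id4 held 1 GGCGCC, 2 GCGNGGGCG and 2 CCAAT, none overlapping another. Id2 held 1 GGCGCC, 3 CCAAT and 1 E-box (CANNTG), and Id3 held 0 of the 4 motifs. Of 32851 such windows, 9.59% held GGCGCC, 4.70% GCGNGGGCG, 33.8% CCAAT and 66.2% CANNTG. The GC share was 75.6% in Id4 and 62.8% in both Id2 and Id3, against a median of 52.4% over all windows. A match describes the letters and does not show binding, and its relation to the shared variation of the Id genes was not tested.

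The tissue carried its expected identity markers at high levels: the mean of 10 brown adipocyte markers ran from 12.40 to 12.58 after anti-FGFR1 and from 12.07 to 12.51 with control IgG (log2). Arrays of a group correlated at 0.991 or more across probe sets. Control IgG replicate 4 was the lowest of the 6 controls in all 4 Id genes, on the brightest probe set of each. On 1423259_at (Id4) the lowest was replicate 5, at 7.88 against 8.14 for replicate 4. On 1453596_at (Id2) it was replicate 3, at 5.23 against 5.54. Among the Id probe sets, replicate 4 lay far from the other controls only for Id3, at 10.25 with the next at 10.77. It was also the lowest control in the mean of smooth muscle and pericyte markers (9.93) and of nerve and Schwann cell markers (9.12). Values without control IgG replicate 4 are given beside each Id gene. Leaving out a lowest control raises the control mean, so those falls are larger by construction.

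Id4 was lower after anti-FGFR1 on all 3 of its probe sets, each of which separated the groups. On the brightest, 1450928_at, the lowest, median and highest log2 values were 7.23, 7.53 and 7.83 after anti-FGFR1, against 8.10, 8.54 and 8.69 with control IgG. The highest treated array lay 0.26 below the lowest control. The means were 7.53 ± 0.21 and 8.46 ± 0.25 (SD, n = 6 each), a log2 fold change of -0.93 ± 0.12 (limma SE), so the control level was 1.90 times the treated one. Only 0.115% of genes had a larger absolute log2 fold change.

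The second probe set of Id4, 1423259_at, had 6.89, 7.41 and 7.86 after anti-FGFR1, against 7.88, 8.40 and 8.53 with control IgG (lowest, median, highest). Its difference was of nearly the same size, -0.90 ± 0.14, but treated arrays spread more widely (SD 0.32, against 0.25 in controls) and the groups were only 0.02 apart. The third, 1423260_at, had 7.50, 7.67 and 7.73, against 7.97, 8.10 and 8.45, with a smaller difference of -0.47 ± 0.08. The 3 probe sets were designed on 1 sequence accession, so they are not independent measurements of the gene. Without control IgG replicate 4 the differences were -1.0, -0.93 and -0.50.

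**Figure D1:**
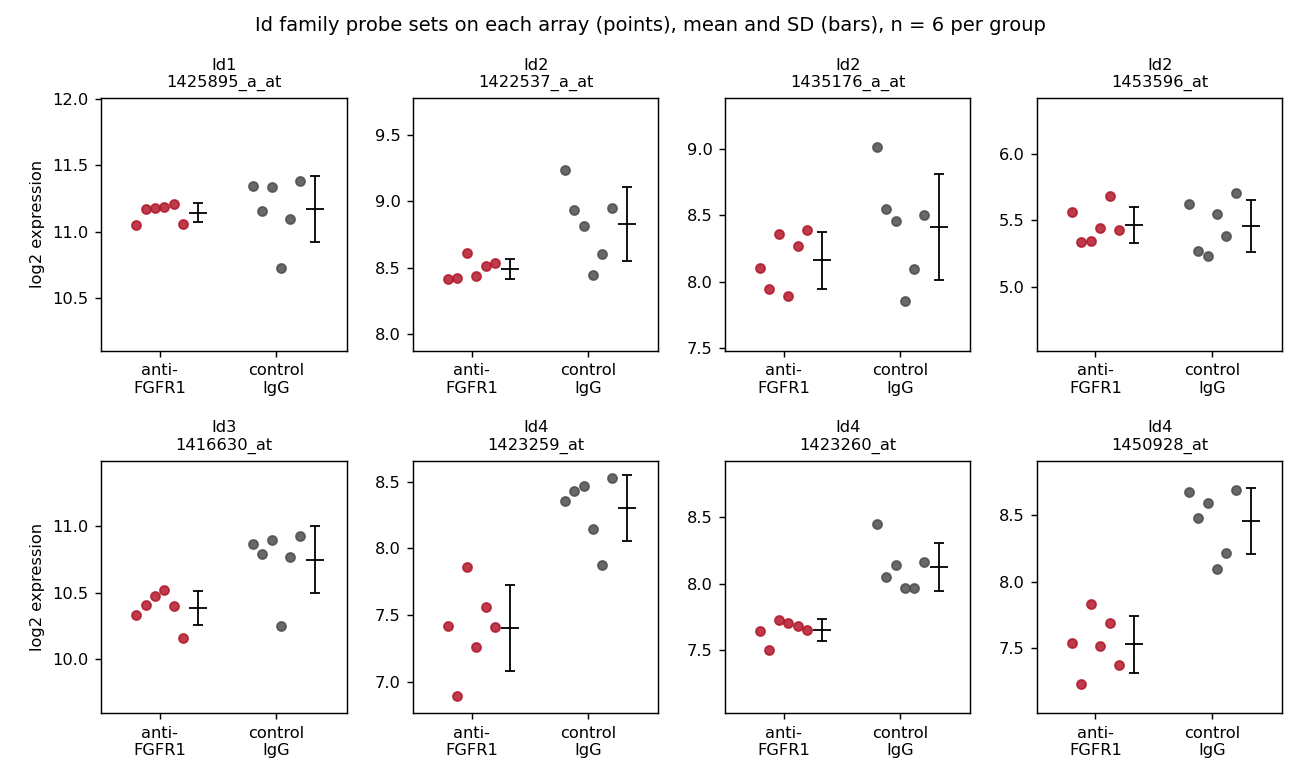
Log2 expression of the 8 Id probe sets on each array (points; anti-FGFR1 left, control IgG right), with the mean and SD beside each group (n = 6), all panels spanning the same number of log2 units. The 3 Id4 probe sets separate the groups, Id3 separates them but for control IgG replicate 4 at 10.25, and Id1 overlaps.

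Id3 was lower after anti-FGFR1 except against 1 control array. Its lowest, median and highest values were 10.16, 10.40 and 10.52 after anti-FGFR1, against 10.25, 10.83 and 10.93 with control IgG. The means were 10.38 ± 0.13 and 10.75 ± 0.25 (SD, n = 6 each), a log2 fold change of -0.37 ± 0.10. The lowest control value was that of replicate 4, and the next lowest was 10.77. Without replicate 4 the groups did not overlap and the difference was -0.47.

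Id2 was lower on its brighter probe sets, with overlap. On 1422537_a_at the lowest, median and highest values were 8.41, 8.47 and 8.61 after anti-FGFR1, against 8.44, 8.87 and 9.23 with control IgG, and 3 of 6 treated arrays lay below all controls. The log2 fold change was -0.34 ± 0.10, and without control IgG replicate 4 it was -0.42, with 5 of 6 treated arrays below the remaining controls. On 1435176_a_at it was -0.25 ± 0.16, with 0 of 6 treated arrays below all controls. The dimmest probe set, 1453596_at, was at 5.46 in both groups and differed by 0.0065 ± 0.09. Only 15.2% of single-gene probe sets were dimmer, and its deviations from the group means followed those of the other Id2 probe sets weakly (r = 0.15 and 0.14 over 12 arrays, against 0.95 between the brighter ones).

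Id1, the brightest member with 94.7% of single-gene probe sets dimmer, had nearly the same mean in both groups. Its lowest, median and highest values were 11.05, 11.18 and 11.21 after anti-FGFR1, against 10.73, 11.25 and 11.38 with control IgG. The means were 11.14 ± 0.07 and 11.17 ± 0.25 (SD, n = 6 each), a difference of -0.03 ± 0.09, and all treated arrays lay within the range of the controls. Without control IgG replicate 4 it was -0.12. Without control IgG replicate 6 it turned to 0.01.

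In the limma fit across all genes, Id3 and Id4 were among the genes called lower (Benjamini-Hochberg adjusted p under 0.05), and Id1 and Id2 were not. That is 2 of 4 genes, where 8.03% of all 18193 genes were called in either direction and 5.09% were called lower; 1 of 4, Id4, separated the groups downward, where that share was 3.55%. Across probe sets, 4 of 8 were called lower (Id3 and all of Id4), where the share of all 34945 single-gene probe sets was 4.75%, and 3 of 8 separated the groups downward, where that share was 3.33%. The median log2 fold change over the 4 genes was -0.35, and over all genes 0.0091. Since this comparison chose the family, nothing is read from these counts. As a further description, leaving out any of 10 arrays ended the call of Id3, and leaving out any of 12 kept that of Id4. A gene chosen for its fold gains no support from calls kept in the same comparison.

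Controls were more scattered than treated mice for Id1, Id2 and Id3. The SD was 0.07 after anti-FGFR1 and 0.25 with control IgG for Id1, 0.08 and 0.28 for Id2 on its brightest probe set, and 0.13 and 0.25 for Id3. Without control IgG replicate 4 the control SD was 0.13 for Id1, 0.23 for Id2 and 0.07 for Id3 (n = 5), so that for Id3 the remaining controls spread less than the treated mice.

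Several pairs of Id genes varied together from mouse to mouse, more closely among controls than among treated mice: the 6 values of r ran from -0.07 to 0.79 over the 6 treated arrays and from 0.73 to 0.97 over the 6 control arrays, a difference that was not tested. The relation of each pair was measured on the deviations of each array from its group mean, which do not depend on the difference between the groups, over 12 arrays and 6 pairs of genes, with a permutation test within groups adjusted over the pairs. Id1 and Id3 were the closest pair (Pearson's r = 0.93, permutation p = 0.00036, adjusted 0.0022; Spearman's rho = 0.85, permutation p = 0.0012, adjusted 0.0072). Their r was 0.79 among the 6 treated and 0.97 among the 6 control arrays. Leaving out the 2 arrays farthest from the median of Id1, control IgG replicates 4 and 6, gave 0.71. How often other pairs of genes reach such values was not computed. Genes outside the family came as close: Casp8 had r = 0.94 with Id1 and Ntn4 0.95 with Id3. The tests thus do not set the family apart from other genes, and variation shared by whole arrays was not separated.

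Id2 and Id4 followed (r = 0.76, permutation p = 0.0025, adjusted 0.0074; rho = 0.83, permutation p = 0.0026, adjusted 0.0078), with r = 0.65 among the treated and 0.89 among the control arrays, and r = 0.70 without the 2 arrays farthest in Id2, control IgG replicates 1 and 4. Id1 and Id4 gave r = 0.75 (permutation p = 0.0037, adjusted 0.0074) and rho = 0.73 (permutation p = 0.013, adjusted 0.026), and r = 0.60 without the 2 arrays farthest in Id1, control IgG replicates 4 and 6; it was 0.34 among the treated and 0.94 among the control arrays. Id3 and Id4 passed by r (0.69, permutation p = 0.011, adjusted 0.016) but not by rho (0.62, permutation p = 0.039, adjusted 0.058), and r was 0.50 without the 2 arrays farthest in Id3, anti-FGFR1 replicate 6 and control IgG replicate 4; it was 0.40 among the treated and 0.84 among the control arrays. Id1 with Id2 (r = 0.76, permutation p = 0.046, adjusted 0.055; rho = 0.65, permutation p = 0.048, adjusted 0.058) and Id2 with Id3 (r = 0.63, permutation p = 0.11, adjusted 0.11; rho = 0.53, permutation p = 0.097, adjusted 0.097) did not pass. Among the treated arrays these pairs had r = 0.18 and -0.07, and among the control arrays 0.81 and 0.73. Without control IgG replicate 4 the 6 values of r ran between 0.16 (Id2 and Id3) and 0.73 (Id1 and Id3). The relation of Id2 and Id3 thus rested largely on that array.

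**Figure D2:**
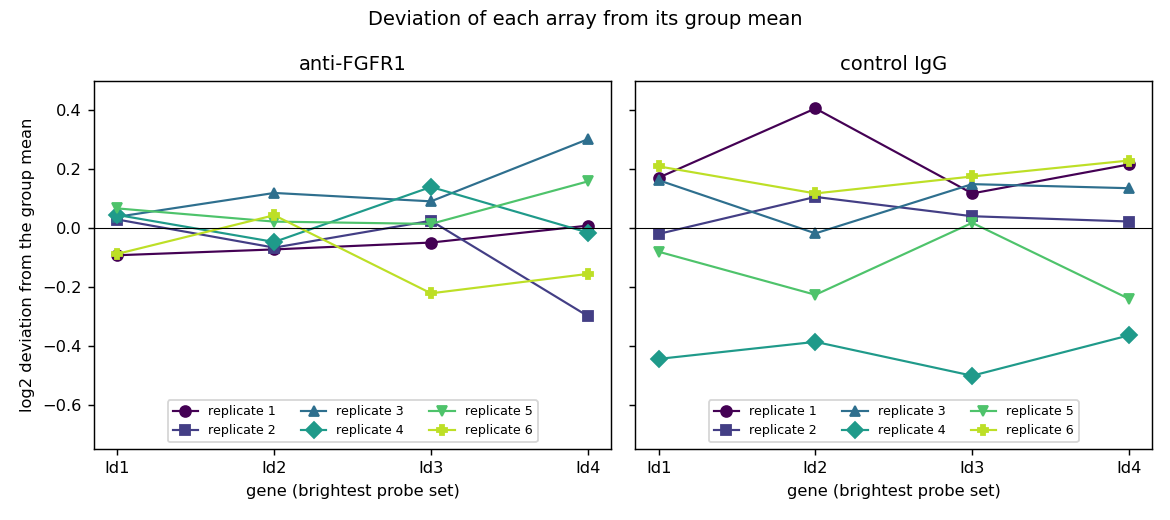
Deviation of each array from its group mean (log2, vertical axis) for Id1 to Id4 on their brightest probe sets (horizontal axis), anti-FGFR1 left and control IgG right, with 1 line per mouse. Control IgG replicate 4 lies lowest among controls in all 4 genes, and replicate 5 is second lowest.

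Genes with the most similar deviations over the 12 arrays were sought among the 9097 genes at or above the median gene level, as a description. For Id1 these were Casp8, an initiator of cell death (r = 0.94), Id3 (0.93) and the basement membrane protein Ntn4 (0.89). For Id3 they were Ntn4 (0.95), Id1 (0.93) and the antiproliferative gene Tob1 (0.88). Ntn4 fell after anti-FGFR1 (log2 fold change -0.58 ± 0.08, limma adjusted p = 0.00042), with Id3 at -0.37 and Id1 at -0.03, and its lowest control was again replicate 4 (8.25).

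For Id2 the closest genes were Rnf144b, a ubiquitin ligase (r = 0.91), Sox17, a transcription factor of endothelium (0.90), and Pwwp2b (0.89). For Id4 they were Tshr, the thyrotropin receptor (0.88), Atp1b3, a sodium pump subunit (0.86), and Dbr1, which opens intron lariats (0.84). Tshr differed from Id4 in the comparison of the groups: it rose by 0.37 ± 0.06 (limma adjusted p = 0.0023), while Id4 was at -0.93. When values were taken as they stand, with the group difference in them, the nearest to Id4 were Iftap, 5031425E22Rik and Arhgap21 (r = 0.94 each), to Id3 Ntn4 (0.92), Dock9 (0.89) and Phc1 (0.88), to Id2 Pwwp2b (0.93), Rnf144b (0.93) and Tnfrsf21 (0.90), and to Id1 Casp8 (0.91), Vps8 (0.87) and Bclaf1 (0.83).

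Of the 3 E proteins, the direct partners of Id proteins, 0 passed limma and 0 had an unadjusted p under 0.05, which 22.4% of all genes had. Tcf3 averaged 8.53 ± 0.08 after anti-FGFR1 and 8.65 ± 0.14 with control IgG (SD, n = 6 each), a difference of -0.11 ± 0.06. Tcf4 was at 0.04 ± 0.07 and Tcf12 at 0.03 ± 0.05. Of 9 other proteins described as binding partners, among them the retinoblastoma proteins Rb1, Rbl1 and Rbl2, the ETS factors Elk1, Elk3 and Elk4 and the early brown fat factor Ebf2, 0 passed limma on their brightest probe sets, and 4 had an unadjusted p under 0.05. Ebf2 was at 0.17 ± 0.07 on its brightest probe set, but at 0.35 and 0.37 on its other probe sets, both of which were called in the fit across probe sets (limma adjusted p = 0.0067 and 0.0069). Of 6 genes of Id protein turnover, such as the deubiquitinase Usp1 (-0.11 ± 0.07), 0 passed, and 1 had an unadjusted p under 0.05.

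Among 21 other bHLH factors measured, 1 rose and 1 fell, 8 had an unadjusted p under 0.05, and the median log2 fold change was 0.0052, next to 0.0091 over all genes. Of all genes, 2.94% were called higher and 5.09% lower. Bhlhe40, a transcriptional repressor linked to the circadian clock, rose: its values lay between 9.71 and 10.16 after anti-FGFR1, against 9.18 to 9.59 with control IgG. The log2 fold change was 0.55 ± 0.09 (limma adjusted p = 0.0018), and the groups did not overlap. Heyl, a Notch target known from vascular smooth muscle, fell to between 8.87 and 9.28, against 9.25 to 9.66, a log2 fold change of -0.45 ± 0.08 (limma adjusted p = 0.0025), with all 3 of its probe sets below 0. Of its treated arrays 5 of 6 lay below all controls. The mean of the smooth muscle and pericyte markers fell beside it, as given below, and their part in the difference of Heyl was not tested. The myogenic factors Myod1 (0.08), Myf5 (-0.14), Myf6 (-0.21) and Myog (0.14) did not pass.

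BMP ligands, which induce Id genes, differed in both directions. Of 11 genes measured from this list, 1 rose and 3 fell, with a median of 0.03, where 2.94% of all genes were called higher and 5.09% lower. The count and the median include Bmp1, a protease that shares the name but is not a BMP ligand. It was at 0.11 ± 0.07 and did not pass. Gdf5, a BMP relative best known from joint formation, fell most: it lay between 7.74 and 8.14 after anti-FGFR1, against 8.25 to 8.87 with control IgG, with no overlap. Its log2 fold change was -0.70 ± 0.09 (limma adjusted p = 0.00040). Bmp6, a ligand that endothelium secretes and that controls iron uptake through the liver, had 9.15 to 9.51, against 9.59 to 9.93, also with no overlap, a log2 fold change of -0.34 ± 0.07 (limma adjusted p = 0.0079).

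Bmp2, a bone-forming ligand, fell (log2 fold change -0.31 ± 0.07, limma adjusted p = 0.016), at a low level (5.77 ± 0.15 after anti-FGFR1 and 6.08 ± 0.11 with control IgG, SD, n = 6 each), and 5 of 6 treated arrays lay below all controls. Bmp5, a skeletal ligand, rose by 0.32 ± 0.07 (limma adjusted p = 0.013), with all 3 probe sets between 0.27 and 0.32. Neither of the ligands best known in fat passed: Bmp4 was at 0.03 ± 0.06, and Bmp7, which drives brown fat formation in mice, at 0.12 ± 0.05 (limma adjusted p = 0.20), with -0.12 and -0.01 on its other probe sets. With the 3′ to 5′ ratio, a measure of RNA integrity, as a covariate, the calls of Bmp2, Bmp5 and Bmp6 were lost (limma adjusted p = 0.088, 0.056 and 0.091), while their log2 fold changes were of about the same size, at -0.32, 0.35 and -0.31, with an SE of 0.09 each. Gdf5 remained called.

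Of 15 BMP receptors, co-receptors and SMADs, 0 rose and 1 fell, 4 had an unadjusted p under 0.05, and 12 of 15 lay below 0 (median -0.06). In all genes, 46.6% lay below 0, 2.94% were called higher and 5.09% were called lower. The gene that fell was Bmpr1a, a type I receptor of BMPs, with 9.04 to 9.23 after anti-FGFR1, against 9.26 to 9.40 with control IgG, a small difference of -0.18 ± 0.05 (limma adjusted p = 0.025) that had the same sign on all 6 of its probe sets. It was no longer called without control IgG replicate 2 or 6 or anti-FGFR1 replicate 5 or 6, with the 3′ to 5′ covariate and after a second quantile normalization. Smad1, which carries the BMP signal, was at -0.21 ± 0.06 and just missed the threshold (limma adjusted p = 0.058), with -0.32 on each of its other probe sets, both called in the fit across probe sets (limma adjusted p = 0.011 and 0.020), and passed without control IgG replicate 4 (-0.24, limma adjusted p = 0.033). Smad5 (-0.10 ± 0.05), the type II receptor Bmpr2 (-0.11 ± 0.05) and the endothelial receptor Acvrl1 (-0.02 ± 0.07) did not pass.

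**Figure D3:**
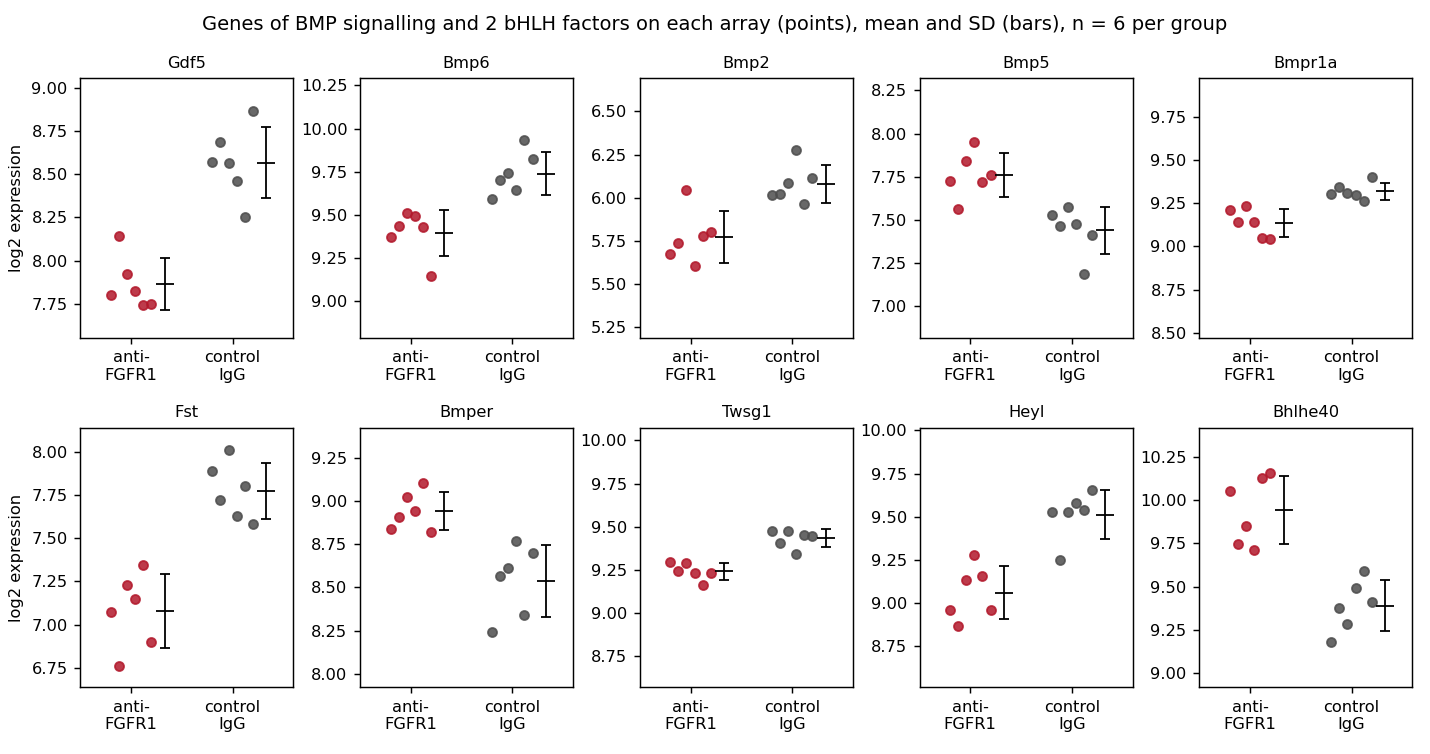
Log2 expression on each array (points; anti-FGFR1 left, control IgG right) with mean and SD (n = 6), for the called genes of the BMP lists and the 2 called bHLH factors, all panels spanning the same number of log2 units. Gdf5, Bmp6, Bmpr1a, Fst and Twsg1 lie lower and Bmper and Bhlhe40 higher with no overlap, and Bmp2, Bmp5 and Heyl have 5 of 6 treated arrays beyond all controls.

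Extracellular BMP antagonists and modulators also moved both ways. Of 12 measured, 1 rose and 2 fell, against 2.94% of all genes called higher and 5.09% called lower. Bmper, a BMP-binding protein of endothelium, rose to between 8.82 and 9.10, against 8.24 to 8.77, a log2 fold change of 0.40 ± 0.09 (limma adjusted p = 0.010). Fst, follistatin, which binds activins and some BMPs, was at -0.69 ± 0.10 (limma adjusted p = 0.00059) and at -1.04 on its dimmer probe set. Twsg1, which binds BMPs together with chordin, fell too (log2 fold change -0.19 ± 0.04, limma adjusted p = 0.010), though 1 of its 4 probe sets was at 0.02, and its call was lost after a second quantile normalization (limma adjusted p = 0.064). Noggin (Nog, -0.01 ± 0.07) and gremlin (Grem1, 0.08 ± 0.07) did not pass.

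Of 8 other genes that BMP signalling induces, 0 passed limma and 2 had an unadjusted p under 0.05, and their median log2 fold change was 0.04. Smad6, an inhibitory SMAD, had the lowest fold change, with 8.69 to 9.19 after anti-FGFR1 and 8.76 to 9.65 with control IgG (-0.36 ± 0.13, limma adjusted p = 0.11). Its lowest control was likewise replicate 4, without which it was at -0.45 and passed (limma adjusted p = 0.032). Smad7 (0.04 ± 0.08), Bambi (-0.06 ± 0.07) and Msx1 (0.08 ± 0.07) did not pass. Over the 8 genes, the deviations of Bambi, a BMP decoy receptor, followed those of Id1 most closely (r = 0.80, permutation p = 0.0050, adjusted 0.040; r = 0.61 without the 2 farthest arrays). By rho the relation did not pass (0.62, permutation p = 0.042, adjusted 0.34), and for the other 7 genes r ran between -0.34 and 0.52, with adjusted permutation p of 0.53 or more. Smad6 and Smad7, at 0.52 each, were at 0.02 and -0.08 without control IgG replicate 4, and Bambi was at 0.62.

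**Figure D4:**
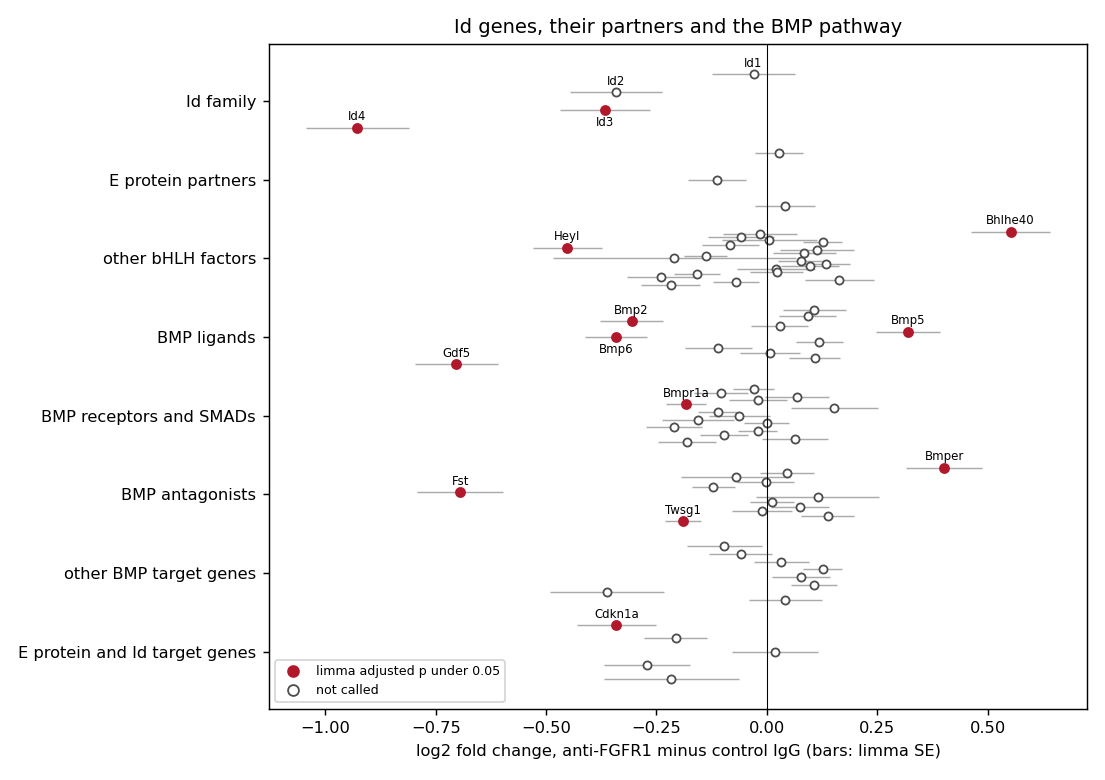
Log2 fold change, anti-FGFR1 minus control IgG (horizontal axis), of the Id genes and of the measured members of 7 pathway lists (rows), with the limma SE as bars and genes called at an adjusted p under 0.05 filled. On the brightest probe sets, Id4, chosen for its fold change, lies at -0.93, beyond Gdf5 at -0.70 and Fst at -0.69, and the E proteins lie around 0. The other probe set of Fst, at -1.04, is not drawn.

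Among 5 genes reported as controlled by E proteins or Id proteins, 0 rose and 1 fell. For this list and the brown fat regulators below, the shares of all genes called higher and lower were 2.94% and 5.09%. Cdkn1a, a cyclin-dependent kinase inhibitor that E proteins activate, was at 11.51 ± 0.14 after anti-FGFR1 and 11.85 ± 0.20 with control IgG (SD, n = 6 each), a log2 fold change of -0.34 ± 0.09 (limma adjusted p = 0.031). Leaving out any of 7 arrays ended its call, as did the 3′ to 5′ covariate. The related inhibitors Cdkn1c (-0.21), Cdkn2b (-0.27) and Cdkn2a (0.02) did not pass. Of 9 regulators of brown fat and fat cell formation, 1 rose: Klf15, a metabolic transcription factor, by 0.62 ± 0.16 (limma adjusted p = 0.028), with treated arrays between 8.83 and 9.29 and widely scattered controls between 7.95 and 9.0, a call that leaving out any of 6 arrays ended, as did the 3′ to 5′ covariate. Ppargc1a, the mitochondrial coactivator, was at 0.26 ± 0.09 on its brightest probe set (limma adjusted p = 0.12), but 3 of its 5 probe sets were called higher in the fit across probe sets, at 0.43, 0.51 and 0.43 (limma adjusted p = 0.020, 0.0026 and 0.012), and it was called under 3 alternatives: the mean of its probe sets, array weights and leaving out control IgG replicate 5. Prdm16, a determinant of brown fat identity, was at -0.22 ± 0.14 on its brightest probe set and did not pass, while 2 of its 4 probe sets were called lower, at -0.35 and -0.31 (limma adjusted p = 0.031 and 0.016). Pparg (0.15) and Ucp1 (0.03) did not pass.

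Markers of other cells moved with the comparison, and fewer cells of a type and less RNA per cell cannot be told apart in whole tissue. Beside each count here, 2.94% of all genes were called higher and 5.09% lower. Of 14 endothelial markers 8 fell and 0 rose. Their mean ran from 9.42 to 9.66 after anti-FGFR1 and from 9.67 to 9.93 with control IgG. Smooth muscle and pericyte markers fell in 6 of 10 and rose in 0, with means of 9.62 to 9.82, against 9.93 to 10.10. The lowest treated mean was that of anti-FGFR1 replicate 5, and the next was 9.65. Of 12 macrophage markers 3 rose, with means of 9.49 to 9.85, against 9.19 to 9.81. Anti-FGFR1 replicate 5 stood apart in skeletal muscle markers: the mean of 10 was 6.76 there and 10.59 to 11.68 on the other treated arrays, against 9.76 to 11.83, with 0 called by limma and 0 reaching an unadjusted p under 0.05. Without that array the treated mean was 11.08, against 10.97, and the differences of Id4, Id3, Id2 and Id1 were -0.96, -0.37, -0.35 and -0.04. Of 9 fibroblast and preadipocyte markers 3 rose and 2 fell, of 7 nerve and Schwann cell markers 1 rose and 1 fell, and of the 10 brown adipocyte markers 2 rose and 0 fell. Their part in the differences of the Id genes was not tested.

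Within groups, the deviations of Id4 were nearly unrelated to those of the endothelial mean (r = 0.01 over 12 arrays) and of the smooth muscle and pericyte mean (-0.04), while Id1 and Id3 had 0.28 and 0.37 with endothelium and 0.44 and 0.51 with smooth muscle and pericytes, given as a description. Id2 had -0.23 and 0.16 with these lists, and its r of -0.69 with the brown adipocyte mean was the farthest from 0 over the 4 genes and 7 marker lists. Id4 had 0.47 with the macrophage and -0.42 with the skeletal muscle mean. The smooth muscle and pericyte mean includes Des, which was far more scattered than its other markers. Its SD was 0.75 after anti-FGFR1 and 0.47 with control IgG, against at most 0.14 and 0.19 in the others. Des was lowest on anti-FGFR1 replicate 5 (8.65), the array that was also lowest in the skeletal muscle markers. How far Des set the r values with the smooth muscle and pericyte mean was not tested. The 3′ to 5′ ratio of the Actb and Gapdh control probe sets was 0.203 ± 0.027 after anti-FGFR1 and 0.161 ± 0.031 with control IgG (SD, n = 6 each, log2). With it as a covariate the log2 fold changes were -1.03 ± 0.15 for Id4, -0.42 ± 0.13 for Id3, -0.52 ± 0.11 for Id2 and -0.11 ± 0.12 for Id1, each lower than without it.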

How the data were processed

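Log2 expression levels of 45101 probe sets, as deposited, come from 12 one-colour Affymetrix arrays labelled with biotin, 1 value for each. RMA and limma were used by the authors, with no version, per the submitters' processing notes, so these log2 values were already background-corrected, normalized and summarised when deposited, which tends to understate changes of dim probe sets. No genome build is given in the sources used here. The values were used as deposited, and their number of arrays sets the precision. Each array is a separate mouse.

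Gene names are those of the platform annotation, with symbols updated by Entrez identifier to RefSeq GRCm38.p6 (34741 of 34945 probe sets with a single gene). For genes other than the Id family the brightest probe set was tested. The comparison of anti-FGFR1 and control IgG used limma 3.58.1 (R 4.3.3; lmFit, eBayes, two-sided, no covariate, Benjamini-Hochberg over all 18193 genes). A second fit covered all 34945 probe sets. Correlations used 100000 permutations within groups (numpy 2.4.6). The gene test was tested on simulated data with independent noise for each gene and array. That simulation cannot show how the test behaves under variation shared by genes or by whole arrays. The members, the 10 pathway lists, the 7 marker lists (brown adipocyte, endothelium, smooth muscle and pericyte, macrophage, fibroblast and preadipocyte, skeletal muscle, nerve and Schwann cell) and the naming rule were chosen with earlier results of these data known. Hey1 is in 2 pathway lists. Pparg, Ppargc1a, Prdm16, Ucp1 and Eng are each in a pathway list and a marker list. The rule names the Id genes, every called pathway gene, 17 genes whatever their values and the 3 nearest genes of each Id gene; genes named besides were chosen after their values were seen. Replicate numbers were not taken as pairs in the main fit, and whether they pair the mice is not known. The deviations of same-numbered arrays correlated between -0.29 and 0.33. For treated replicates 1 and 2 the control of the same number was the closest, and for the others it was not. Such correlations cannot show how the mice were matched.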

Additional observations from a re-analysis of the deposited data

Results flagged for a closer look

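In 146 groups of 6 values examined (the Id probe sets and the other named genes, in each treatment), 8 values lay far from the others of their group. Some came from the same array. Chance alone puts about 1 in 20 groups there. For Id3, control IgG replicate 4 was at 10.25, with the next control at 10.77. For Heyl, control IgG replicate 2 was at 9.25, with the next at 9.53. For Tcf4, control IgG replicate 5 was at 10.39, with the next at 10.64. For Prdm16, control IgG replicate 1 was at 8.89, with the next at 9.63. For Myf6, anti-FGFR1 replicate 5 was at 4.85, with the next at 6.07; that array was also lowest in the skeletal muscle markers. For Ntn4, control IgG replicate 4 was at 8.25, with the next at 8.59. For Msx1, control IgG replicate 2 was at 9.22, with the next at 8.96. For Cdkn2a, anti-FGFR1 replicate 6 was at 6.58, with the next at 6.24.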

How the results depend on the processing

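Across 20 alternatives Id4 stayed between -1.03 and -0.77, Id3 between -0.47 and -0.32 and Id2 between -0.52 and -0.19, while Id1 ran between -0.12 and 0.01. Leaving out 1 array gave -1.0 to -0.87 for Id4, -0.47 to -0.32 for Id3, -0.42 to -0.26 for Id2 and -0.12 to 0.01 for Id1. Of the alternatives, 20 called Id4, 6 Id3, 5 Id2 and 0 Id1, given as a description because the same comparison chose the family. With the 3′ to 5′ covariate 281 genes were called higher and 407 lower, against 535 and 926, and 1 BMP ligand, 0 BMP receptors and SMADs, 0 E protein and Id targets, 0 brown fat regulators and 1 turnover gene. The second quantile normalization called 0 BMP receptors and SMADs, and 50.9% of called genes were lower, against 63.4%. With the replicate number as a block, 535 genes were called higher and 802 lower, with 0 BMP receptors and SMADs, 1 non-bHLH partner and 1 turnover gene, and Id3 and Bmpr1a were not called. The block changed the call of no other pathway gene given by the naming rule. Genes named besides were not followed there. The mean of probe sets gave 3 BMP receptors and SMADs, 1 non-bHLH partner and 2 brown fat regulators. Without dim genes there were 5 other bHLH factors, 2 non-bHLH partners, 2 BMP ligands, 2 BMP receptors and SMADs and 1 other BMP target. The intensity trend gave 2 non-bHLH partners and 2 BMP receptors and SMADs, and array weights 1 non-bHLH partner and 2 brown fat regulators. Leaving out 1 array gave 364 to 585 genes higher and 664 to 1113 lower, 2 to 4 other bHLH factors, 0 to 1 non-bHLH partners, 0 to 2 BMP receptors and SMADs, 3 to 4 BMP antagonists, 0 to 1 other BMP targets, 0 to 2 E protein and Id targets and 0 to 2 brown fat regulators. The cause of these changes was not tested. Dim probe sets such as 1453596_at (Id2) and Bmp2 are limited by their signal over background.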
